A study of Mus musculus with 6 samples.

Results

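The genes described here encode 39 RNA-binding proteins that regulate splicing, chosen by symbol from the 56691 genes of the deposited table, and each symbol matched exactly 1 gene. They comprise 19 broadly expressed heterogeneous nuclear ribonucleoprotein (hnRNP) genes, 15 tissue-specific regulators of the Ptbp, Rbfox, Mbnl, Celf, Esrp and Nova families, and 5 other regulators (Tia1, Tial1, Elavl1, Khdrbs1 and Khdrbs3). RNA was sequenced from KVTR cells, mouse cells that the titles call primary clear cell renal carcinoma cells and that another label calls a cell line. The comparison was dopamine against blank, with 3 libraries in each group, and it asks whether transcripts of splicing regulators differ in abundance after dopamine. The sources used here do not give the genotype of the cells, the dose or the duration. Nothing in the labels tells whether separate cultures were used, so p-values measure only the spread between libraries, which may be technical.

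HnRNP proteins coat nascent pre-mRNA and, through the sites they occupy, promote or repress the use of nearby exons, often in opposition to SR proteins. Tissue-specific regulators act on the same transcripts, and several of them are made in few cell types, where they switch sets of exons together. The class as listed here also holds more widely expressed genes, such as Ptbp1 and Rbfox2. Ptbp1 represses neuronal exons in dividing cells and is replaced by Ptbp2 as neurons form. Rbfox and Nova proteins act mainly in neurons (Rbfox also in muscle), Esrp proteins in epithelia, and Mbnl and Celf proteins often oppose each other during tissue maturation. Such proteins are also regulated by splicing of their own transcripts, which counts per gene do not show.

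The libraries held 16771499 to 23375622 counts. Of the 3 blank libraries, 2 carry the numbers 2 and 3 and the remaining count column carries no number. It is called the unnumbered blank library here. That library stood apart in dividing-cell markers: the 6 proliferation markers summed to 475 CPM (counts scaled to a common library total) there and to 28.9 to 53.3 CPM in the other 5 libraries. The renal label was checked against 14 tubule markers. Of these, 8 stayed below 1 CPM in each library, and Slc22a6, an organic anion transporter gene, had no count at all, which allows up to 3 counts, or 0.133 to 0.174 CPM depending on the library. Pax8, a renal lineage factor, was at 0.383 to 1.15 CPM over the 6 libraries. By contrast, the endocytic receptor gene Lrp2 was at 87.1 to 384 CPM and Aqp1 at 14.5 to 116 CPM. Of 5 markers of clear cell renal carcinoma, 0 stayed below 1 CPM in each library. Their sum ran from 163 to 189 CPM in blank and from 137 to 248 CPM in dopamine libraries, with Vegfa alone at 97.8 to 193 CPM. Of 10 epithelial markers, 6 stayed below 1 CPM. Of 10 astrocyte markers, all exceeded 1 CPM in at least 1 library, and their sum ran from 1134 to 6720 CPM in blank and from 1138 to 5533 CPM in dopamine libraries. The sum of 10 neuron markers ranged from 347.5 to 1018 CPM without dopamine and from 330.1 to 1051 CPM with it. For 6 fibroblast markers the sums were 1655 to 2795 and 610 to 2643 CPM. For 6 skeletal and smooth muscle markers they were 174 to 1010 and 108 to 310 CPM. For 4 endothelial markers they were 48.6 to 210 and 13.9 to 58.3 CPM. The sums of 8 leukocyte markers, of which 5 stayed below 1 CPM, were 35.7 to 80.1 and 86.2 to 171 CPM. Like the proliferation sums, these did not overlap between groups, and the cause was not tested. In bulk RNA, fewer cells of a type and less RNA per cell cannot be told apart.

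Promoters are shown for a pair of genes highest in dopamine 1 (Hnrnpd and Hnrnpdl) and a pair highest in the unnumbered blank library (Hnrnpa1 and Hnrnpab). Each window runs from 250 bases before to 50 bases after the RefSeq start (GRCm38.p6). They are Hnrnpd (chr5:99978889-99979188, minus strand), Hnrnpdl (chr5:100039173-100039472, minus), Hnrnpa1 (chr15:103240147-103240446, plus) and Hnrnpab (chr11:51606832-51607131, minus). Capitals mark the GC box letters GGGCGG and the CCAAT box letters CCAAT, each on either strand (CCGCCC and ATTGG on the other), and adjoining matches run together.
Hnrnpd promoter: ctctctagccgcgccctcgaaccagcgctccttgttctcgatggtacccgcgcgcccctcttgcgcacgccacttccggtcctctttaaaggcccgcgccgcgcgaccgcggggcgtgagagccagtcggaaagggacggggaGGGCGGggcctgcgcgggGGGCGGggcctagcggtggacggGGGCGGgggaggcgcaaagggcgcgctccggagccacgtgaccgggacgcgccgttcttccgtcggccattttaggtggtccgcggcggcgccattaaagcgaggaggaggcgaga
Hnrnpdl promoter: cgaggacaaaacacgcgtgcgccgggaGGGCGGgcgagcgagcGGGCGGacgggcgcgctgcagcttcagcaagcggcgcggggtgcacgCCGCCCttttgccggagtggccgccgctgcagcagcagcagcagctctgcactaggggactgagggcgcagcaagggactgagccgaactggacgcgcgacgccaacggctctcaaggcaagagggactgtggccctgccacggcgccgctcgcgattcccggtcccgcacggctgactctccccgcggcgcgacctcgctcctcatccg
Hnrnpa1 promoter: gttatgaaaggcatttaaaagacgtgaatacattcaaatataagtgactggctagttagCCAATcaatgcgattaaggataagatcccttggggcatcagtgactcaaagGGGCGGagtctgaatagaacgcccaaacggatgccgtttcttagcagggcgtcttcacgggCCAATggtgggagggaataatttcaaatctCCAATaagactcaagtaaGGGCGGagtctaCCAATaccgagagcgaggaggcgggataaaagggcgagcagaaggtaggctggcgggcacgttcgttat
Hnrnpab promoter: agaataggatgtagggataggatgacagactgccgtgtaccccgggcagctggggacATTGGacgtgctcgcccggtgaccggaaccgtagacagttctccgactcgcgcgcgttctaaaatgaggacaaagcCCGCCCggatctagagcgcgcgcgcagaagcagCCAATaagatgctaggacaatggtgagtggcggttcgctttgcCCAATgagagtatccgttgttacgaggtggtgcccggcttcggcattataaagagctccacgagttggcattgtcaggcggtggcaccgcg
The Hnrnpd and Hnrnpdl windows held 3 GC box matches each and 0 CCAAT matches, with a G+C content of 72.3% and 72.7%. The Hnrnpa1 window held 4 CCAAT and 2 GC box matches at 48.3% G+C, and the Hnrnpab window 3 CCAAT and 1 GC box match at 58.3%. Over 48 windows of the 32 members with one in the RefSeq table, 62.5% held the GC box letters and 45.8% the CCAAT letters. Over all 32841 windows of that length the shares were 35.7% and 37.4%. The median G+C content was 59.8% in the member windows and 52.7% in all windows, and the shares were not matched for it. Windows of the same gene can overlap, and a match is only a description of the letters.

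Across genes, levels per length (FPKM, recomputed from the counts and the deposited exonic lengths) put the broad hnRNP genes on top. Hnrnpk, which binds C-rich sequence, averaged 79.4 FPKM over the 6 libraries (67.9 to 97.3). Hnrnpc, which binds uridine tracts, averaged 78.4 FPKM (64.7 to 87.5), and Hnrnpab, an A/B-type hnRNP, 77.2 FPKM (53.2 to 145). The ranges of these 3 genes overlapped, so their order was not separated by the spread between libraries. Hnrnpa1, a repressor of exon inclusion, followed at 72.7 FPKM and Hnrnpa2b1 at 62.3 FPKM. The G-run binding gene Hnrnpf averaged 56.2 FPKM, Hnrnpa0 53.3 FPKM, and Hnrnpu, a nuclear scaffold protein, 43.1 FPKM. The 11 remaining broad hnRNP genes averaged 5.66 (Hnrnpr) to 29.8 FPKM (Hnrnph1), among them Hnrnph2 (27.5) and Hnrnpl (22.8). Hnrnpll, the Hnrnpl paralog known from CD45 splicing in lymphocytes, averaged 6.15 FPKM.

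Among the tissue-specific regulators, 10 of 15 were clearly detected and 5 were close to nothing. Ptbp1 led at 32.6 FPKM (24.9 to 47.2), followed by Mbnl2 at 20.0 FPKM (14.9 to 28.5) and Rbfox2 at 17.9 FPKM (14.5 to 24.0), whose ranges overlapped. Celf1 averaged 16.4, Mbnl1 6.42, Ptbp3 5.24 and Celf2 4.57 FPKM. The neuronal regulators Nova2 and Ptbp2 averaged 3.15 and 2.68 FPKM, and Nova1 1.09 FPKM. Esrp2, Rbfox1, Mbnl3, Esrp1 and Rbfox3 averaged 0.024 to 0.187 FPKM. The other regulators ran from Khdrbs1, a STAR-family protein, at 17.8 FPKM to Tia1, a U-rich RNA-binding protein of stress granules, at 2.64 FPKM. Between them stood Khdrbs3 (9.69), Elavl1, which stabilises AU-rich mRNAs (8.97), and Tial1 (8.82).

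**Figure D1:**
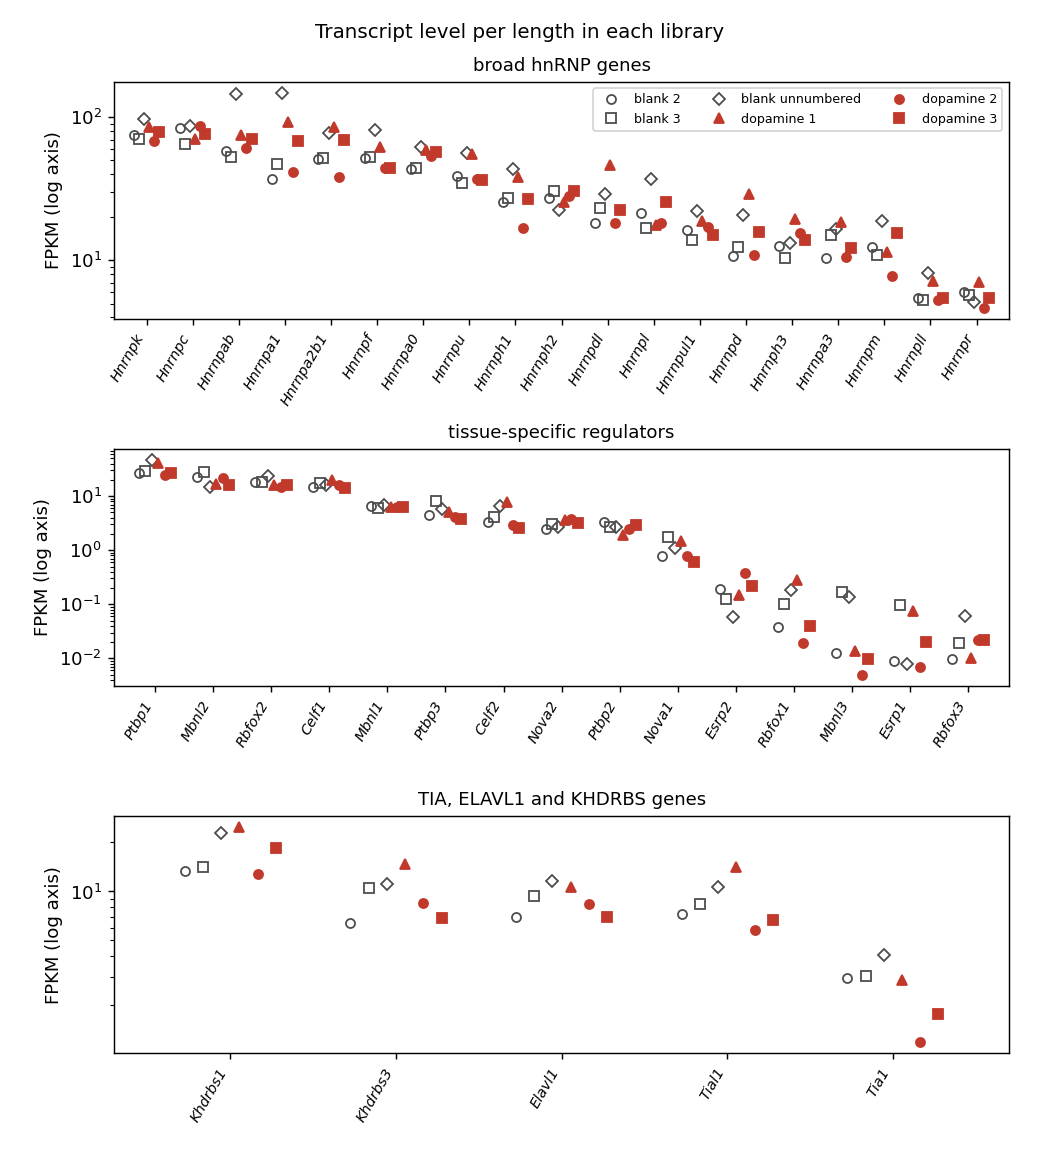
FPKM of each of the 39 genes (log axis) in the 3 blank libraries (open grey) and 3 dopamine libraries (filled red), by class and ordered by mean. Broad hnRNP genes lie between 4.65 and 149 FPKM, and 5 tissue-specific genes stay under 0.375 FPKM in each library.

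The epithelial regulators Esrp1 and Esrp2 were near the detection limit, beside the low epithelial markers. Blank values are given in the order 2, 3 and unnumbered, and dopamine values in the order 1, 2 and 3. Esrp1 counts were 1, 11 and 1 in blank and 8, 1 and 3 in dopamine libraries. Esrp2 had 15, 10 and 5 counts in blank and 11, 38 and 22 counts in dopamine libraries, so the groups overlapped. Its span overlaps Nfatc3 on the opposite strand, which had 7593% of its counts and shares 219 exonic bases with it (GENCODE M21), and without strand information those reads cannot be told apart. The log2 fold change of Esrp2 was 1.02 ± 0.63 (SE; 95% interval -0.48 to 2.52), the highest of its class (0.57 without dopamine 2). The neuronal Rbfox1 had 3, 8 and 16 counts in blank and 21, 2 and 4 counts in dopamine libraries. Rbfox3, the gene of the neuronal nuclear antigen NeuN, had 1, 2 and 7 counts in blank and 1, 3 and 3 in dopamine libraries. Mbnl3 had 2, 27 and 24 counts in blank and 2, 1 and 2 counts in dopamine libraries, so blank 2 held as little as the dopamine group. Rbfox1, Rbfox3, Mbnl3 and Esrp1 did not pass edgeR's filter on low counts and were not tested in the comparison below. With no filter on low counts, the p of Mbnl3 was 0.00452 unadjusted and 0.8998 adjusted (edgeR), on the lower side with dopamine. With a library left out, Mbnl3 passed the filter in 4 fits, all of which kept blank 3 and the unnumbered blank library, where its counts were high. Its unadjusted edgeR p in those fits (0.00129 to 0.0473) is therefore no added support, and the adjusted p was 0.714 or more. The unadjusted p of the other 3 genes was 0.603 or more wherever they were tested.

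No member differed between dopamine and blank at the threshold, an adjusted p of 0.05 in edgeR's quasi-likelihood test with Benjamini-Hochberg adjustment over 15420 genes. The test called 0 of 15420 genes (0%), and 454 (2.94%) had an unadjusted p under 0.05. DESeq2 called 20 genes, 0 of them among the 35 members tested. Of those members, 18 lay on the higher side with dopamine and 17 on the lower side, and 1 (Tia1, on the lower side) had an unadjusted p under 0.05. Of all genes tested, 1.04% had such a p on the higher side and 1.9% on the lower side. Their log2 fold changes ran from -0.75 to 1.02, and the smallest standard error was 0.16. For 25 of the 35 the 95% interval lay within a 2-fold change in either direction, against 46.2% of all genes tested. The median standard error was 0.273 for the members and 0.345 for all genes, and genes were not matched for count level.

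Broad hnRNP genes and tissue-specific regulators had medians close to that of all genes. The median log2 fold change was 0.03 over the 19 broad hnRNP genes (11 higher, 8 lower), and the 11 tissue-specific regulators tested had a median of -0.11 (4 higher, 7 lower). The 5 other regulators had a median of 0.05 (3 higher, 2 lower), and all 15420 genes a median of 0.01, with 51.7% on the higher side. Summed CPM of the broad hnRNP genes was 3747 ± 885 (SD, n = 3) in blank and 3767 ± 564 (SD, n = 3) with dopamine. For the tissue-specific regulators it was 1061 ± 40.2 and 973 ± 91.0 CPM. The signs of these medians rested on single libraries. For the broad hnRNP genes the median was -0.02 without blank 2, -0.11 without blank 3 and -0.09 without dopamine 1. Leaving out the unnumbered blank library gave 0.15, and leaving out dopamine 2 gave 0.08. For the tissue-specific regulators, leaving out the unnumbered blank library gave 0.02 and leaving out dopamine 2 gave 0.0007. The other 4 omissions left it between -0.23 (dopamine 1) and -0.03 (blank 3). For the other regulators the values ran from -0.19 (dopamine 1) to 0.23 (dopamine 2), with -0.05 for blank 2.

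**Figure D2:**
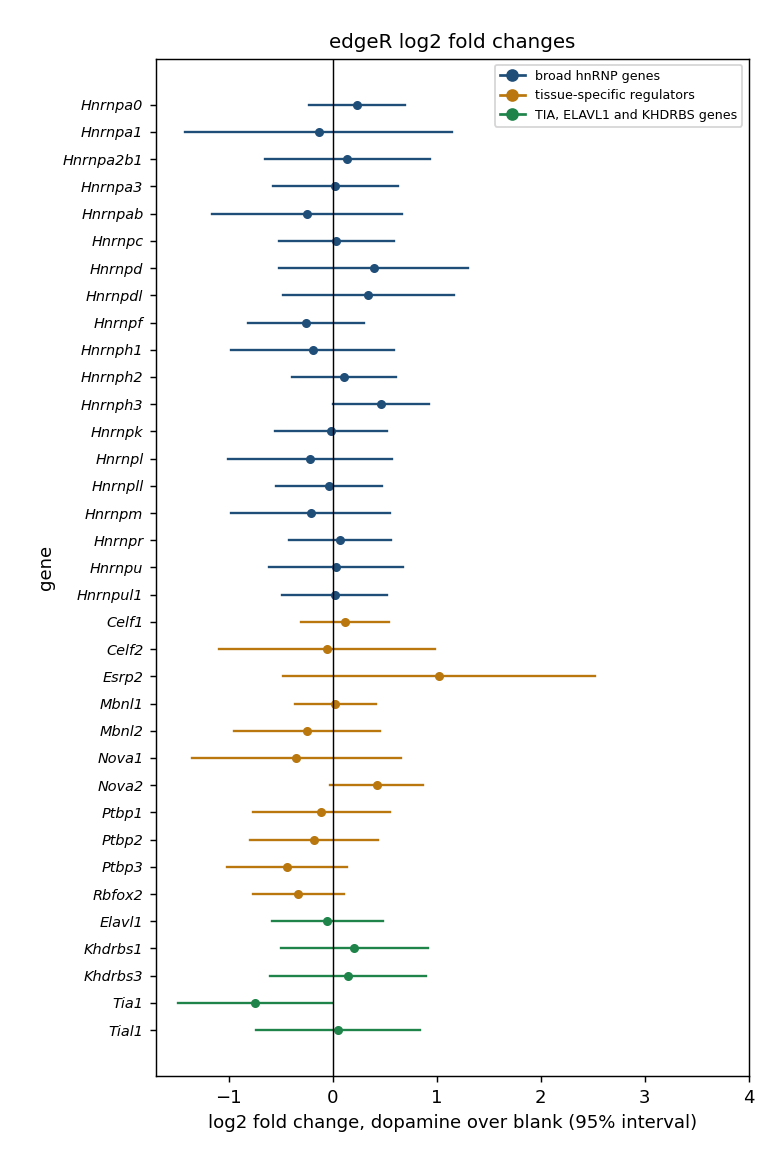
Log2 fold change, dopamine over blank, with its 95% interval (edgeR) for the 35 members tested, coloured by class. The estimates lie between -0.75 (Tia1) and 1.02 (Esrp2), and the interval of Tia1, from -1.49 to -0.01, is the only one that does not cross 0.

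Broad hnRNP levels differed more between libraries than between groups. Relative to the mean of the 6 libraries, the median log2 CPM of these genes was 0.30 in the unnumbered blank library and 0.18 in dopamine 1. It was 0.05 in dopamine 3, -0.08 in blank 2, -0.22 in dopamine 2 and -0.25 in blank 3. The unnumbered blank library was the highest of the 6 for 10 of the 19 genes, where it was the highest for 22.6% of all genes tested. Dopamine 1 was the highest for 6 of the 19 (21.1% of all genes), and blank 3 the lowest for 9 (13.8% of all genes). High medians in the unnumbered blank library and dopamine 1 were not particular to this class. They were 0.31 and 0.48 for the 5 other regulators. For the wider list of related RNA-binding proteins described below they were 0.16 and 0.22. For the tissue-specific regulators the same medians stayed between -0.10 and 0.01, which does not mean that each gene was steady. Their median ratio of highest to lowest library was 1.82, against 1.68 for the broad hnRNP genes. Over all 35 members, the highest library exceeded the lowest by more than 2-fold for 14, against 55.2% of all genes tested, not matched for count level. Marker sums also differed between libraries. The proliferation sum was highest in the unnumbered blank library (475 CPM). It did not set dopamine 1 apart, at 28.9, 32.2 and 30.9 CPM in dopamine 1, 2 and 3. The astrocyte sum was lowest in the unnumbered blank library and dopamine 1 (1134 and 1138 CPM respectively), against 2296 to 6720 CPM in the other 4 libraries. The part of these markers in the hnRNP levels was not tested.

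**Figure D3:**
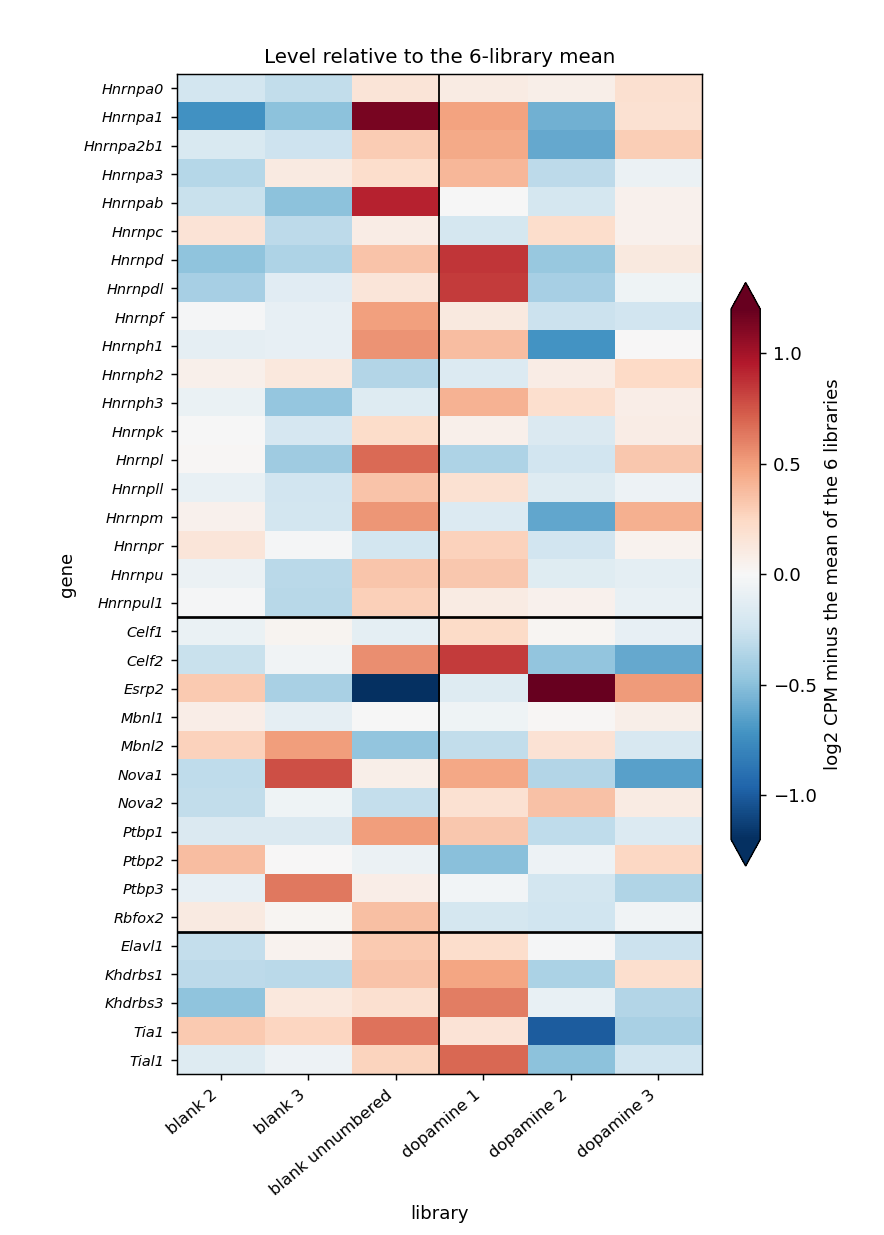
Log2 CPM of the 35 members tested in each library, relative to the gene's mean over the 6 libraries (red higher, blue lower, colours limited to 1.2 log2 units), with classes parted by horizontal lines and groups by the vertical line. Broad hnRNP rows are red mainly in the unnumbered blank library and dopamine 1, as are those of the other regulators. The tissue-specific rows share no such column.

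Hnrnpa1 and Hnrnpab were carried by the unnumbered blank library. Hnrnpa1 was at 122, 144 and 445 CPM in blank and at 282, 135 and 229 CPM in dopamine libraries. The groups overlapped, with a log2 fold change of -0.14 ± 0.54 that became 0.70 without the unnumbered blank library. Leaving out dopamine 2 gave 0.10. Processed copies of Hnrnpa1 can share its reads. The table names 2 such pseudogenes, which held 0.048% of its counts. Hnrnpab was at 168, 144 and 383 CPM in blank and at 201, 174 and 209 CPM in dopamine libraries. Its log2 fold change of -0.25 ± 0.39 turned to 0.33 without the unnumbered blank library, since the dopamine values all lay above the other blank values. Hnrnpf, at 166, 156 and 235 CPM in blank and 182, 140.3 and 143 CPM in dopamine libraries, had the lowest estimate of the class (-0.26 ± 0.24; -0.05 without the unnumbered blank library).

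The remaining broad hnRNP genes (Hnrnpa0, Hnrnpa2b1, Hnrnpa3, Hnrnpc, Hnrnph1, Hnrnph2, Hnrnpk, Hnrnpl, Hnrnpll, Hnrnpm, Hnrnpr, Hnrnpu and Hnrnpul1) overlapped between groups. Their log2 fold changes ran from -0.22 (Hnrnpl, a CA-repeat binding protein) to 0.23 (Hnrnpa0). Elavl1 was at -0.05 ± 0.23 and Khdrbs3 at 0.14 ± 0.32. The spans of 25 of the 39 members overlap another gene, and for 10 of them that gene holds at least 1% of the member's counts, so reads may be shared where strand is not used. For Hnrnpm the overlapping gene is Marchf2 on the same strand, with 47.7% of its counts.

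Hnrnpd and its paralog Hnrnpdl, AU-rich element binding proteins of mRNA turnover, shared their library profile, with dopamine 1 on top. They lie next to each other on chromosome 5 in the deposited table (GRCm39), Hnrnpd at 100103794 to 100126797 and Hnrnpdl at 100181436 to 100187523. The gap is 54638 bases, with 0 annotated genes between. Hnrnpd was at 81.6, 88.1 and 144 CPM in blank and at 206, 83.1 and 123 CPM in dopamine libraries. Hnrnpdl was at 91.4, 109 and 133 CPM in blank and at 216, 91.3 and 116 CPM in dopamine libraries. Both genes were highest in dopamine 1 and second in the unnumbered blank library, and the groups overlapped. The log2 fold changes were 0.39 ± 0.38 and 0.34 ± 0.35, and without dopamine 1 they were -0.02 and -0.10. Of the promoters above, those of this pair were the windows without CCAAT letters, but other members differed from that contrast. The window of Hnrnpa3, also highest in dopamine 1, held 2 CCAAT matches. The window of Hnrnpu, highest in the unnumbered blank library, held 0. A link between letters and library profile was not tested.

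Tia1 had the largest negative estimate, and that of Tial1, its close paralog, was 0.05 ± 0.33. Both proteins bind U-rich sequence downstream of weak splice donor sites and promote their use. Tia1 (ENSMUSG00000071337, chromosome 6, 86381201 to 86410387, GRCm39) was at 48.1, 46.2 and 60.5 CPM in blank and at 43.3, 19.3 and 29.5 CPM in dopamine libraries. Each dopamine value lay below each blank value, but dopamine 1 by only a small step. The log2 fold change was -0.75 ± 0.31 (95% interval -1.49 to -0.01, unadjusted p = 0.0478, edgeR adjusted p = 0.9997). Without the individual libraries it ran from -0.51 (without dopamine 2) to -1.08 (without dopamine 1), and its adjusted p stayed at 0.545 or more in each alternative. Tial1 was at 52.1, 55.8 and 70.0 CPM in blank and at 93.6, 41.4 and 49.3 CPM in dopamine libraries, and the groups overlapped. Within a library, the per-length ratio of Tia1 to Tial1 was 0.405, 0.363 and 0.379 in blank and 0.203, 0.204 and 0.262 in dopamine libraries. Of the 13 paralog ratios computed, this is the only one whose groups did not overlap. The share of such ratios over other gene pairs was not computed. Tia1 alone already separated the groups, so its ratio is no separate support. In dopamine 1 the low ratio went with the highest Tial1 value of the 6 libraries (93.6 CPM). No test was made on the ratios.

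Besides Tia1, 3 members tested had no overlap between groups, so that 4 of 35 did, where 8.48% of all genes tested did. Dopamine lay below for 2 of them (4.47% of all genes) and above for 2 (4% of all genes). Rbfox2 (chromosome 15, 76963190 to 77191204), the broadly expressed Rbfox paralog, was at 155, 146 and 185 CPM in blank and at 125, 122 and 139 CPM in dopamine libraries. Its log2 fold change was -0.33 ± 0.18 (-0.22 without the unnumbered blank library). Nova2 (chromosome 7, 18659813 to 18699244) was at 21.3, 25.1 and 21.4 CPM in blank and at 29.6, 33.2 and 27.8 CPM in dopamine libraries, with a log2 fold change of 0.42 ± 0.19. Hnrnph3 (chromosome 10, 62850443 to 62859996), a member of the G-run binding group, was at 41.5, 32.0 and 39.7 CPM in blank and at 59.0, 50.6 and 46.4 CPM in dopamine libraries. Its estimate, 0.46 ± 0.20, was the highest among the broad hnRNP genes. Rufy2 overlaps its span on the opposite strand, with 115 shared exonic bases (GENCODE M21), and ranged from 33.3 to 39.3 CPM without dopamine and from 27.5 to 31.4 CPM with it. The edgeR adjusted p was 0.9997 for each of these 3 genes, and over the alternatives it stayed at 0.560 or more.

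**Figure D4:**
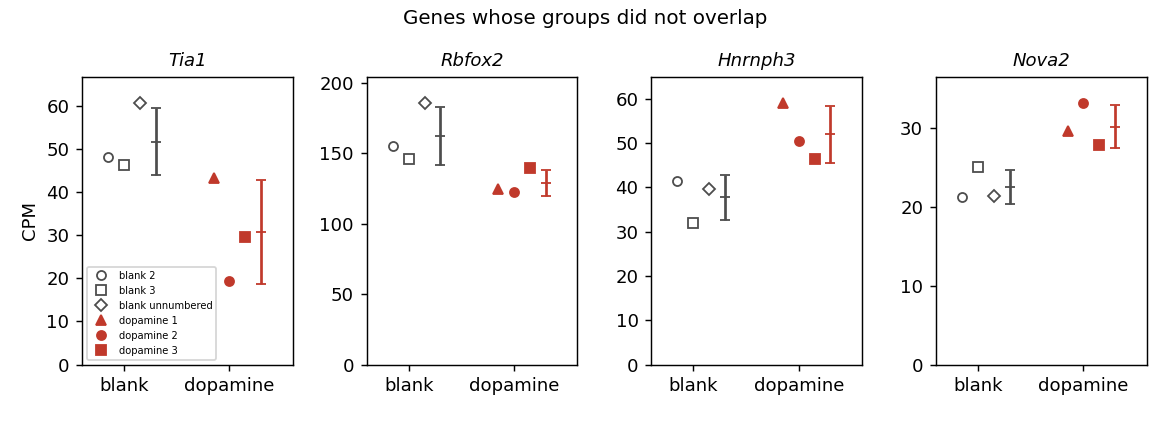
CPM of Tia1, Rbfox2, Hnrnph3 and Nova2 in each library, axes from 0, with the mean and SD (n = 3) of each group to the right of its points. The groups do not overlap, and the gap for Tia1 is between 43.3 CPM in dopamine 1 and 46.2 CPM in blank 3.

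Ptbp genes kept the order Ptbp1, Ptbp3, Ptbp2 per length in each of the 6 libraries, with Ptbp1 far above. Ptbp1 was at 133, 133 and 212 CPM in blank and at 187, 122 and 134 CPM in dopamine libraries. Its log2 fold change was -0.11 ± 0.28, and the sign turned when the unnumbered blank library (0.15) or dopamine 2 (0.0007) was left out. Ptbp2 was at 31.4, 24.4 and 23.2 CPM in blank and at 17.2, 23.3 and 28.9 CPM in dopamine libraries (-0.18 ± 0.26; -0.01 without dopamine 1). Per length, Ptbp2 stood at 0.122, 0.0950 and 0.0565 of Ptbp1 in blank and at 0.0475, 0.0990 and 0.112 in dopamine libraries. The ratio was lowest in dopamine 1 and the unnumbered blank library, across the groups. Ptbp3, the paralog known from blood cells, had the lowest estimate of the tissue-specific class, at 35.5, 58.9 and 40.2 CPM in blank and 37.1, 32.5 and 29.6 CPM in dopamine libraries (-0.44 ± 0.24). It was -0.19 without blank 3, which held the 58.9 CPM.

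Mbnl1 was the steadiest member, at 127, 111 and 119.6 CPM in blank and 116, 122 and 126 CPM in dopamine libraries, with a highest-to-lowest ratio of 1.14. Its log2 fold change was 0.02 ± 0.16 (95% interval -0.37 to 0.41), and it turned to -0.02 without blank 3 and -0.01 without dopamine 3. Mbnl2 was at 284, 332 and 169 CPM in blank and 192, 265 and 205 CPM in dopamine libraries (-0.25 ± 0.30; -0.04 without blank 3). Per length, Mbnl2 was 2.21 to 4.65 times Mbnl1 in blank and 2.53 to 3.40 times in dopamine libraries. Celf1 was at 130.4, 141 and 127 CPM in blank and 162, 140.3 and 129 CPM in dopamine libraries (0.11 ± 0.18; 0.02 without dopamine 1). Celf2 was at 90.4, 106 and 161 CPM in blank and 194, 78.4 and 70.9 CPM in dopamine libraries (-0.06 ± 0.44). Like Hnrnpd, Celf2 was highest in dopamine 1 and the unnumbered blank library. Its estimate was -0.67 without dopamine 1, 0.22 without the unnumbered blank library, 0.15 without dopamine 2 and 0.20 without dopamine 3.

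Nova1 was at 7.17, 15.1 and 9.30 CPM in blank and at 12.2, 6.94 and 5.64 CPM in dopamine libraries (-0.35 ± 0.43; 0.0038 without blank 3). Blank 3 and dopamine 1 held the most, and the groups overlapped. Per length, Nova2 was 3.10, 1.73 and 2.40 times Nova1 in blank and 2.54, 4.998 and 5.16 times in dopamine libraries. The ratio in dopamine 1 lay within the blank range and those in dopamine 2 and 3 above it. Khdrbs1 had the highest estimate among the other regulators, at 88.6, 88.0 and 139.9 CPM in blank and 154, 85.0 and 127 CPM in dopamine libraries (0.21 ± 0.30; 0.0042 without dopamine 1). Of the G-run binding pair, Hnrnph2 stood at 1.07, 1.12 and 0.515 of Hnrnph1 per length in blank and at 0.666, 1.67 and 1.12 in dopamine libraries. The unnumbered blank library and dopamine 1 again held the lowest ratios.

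**Figure D5:**
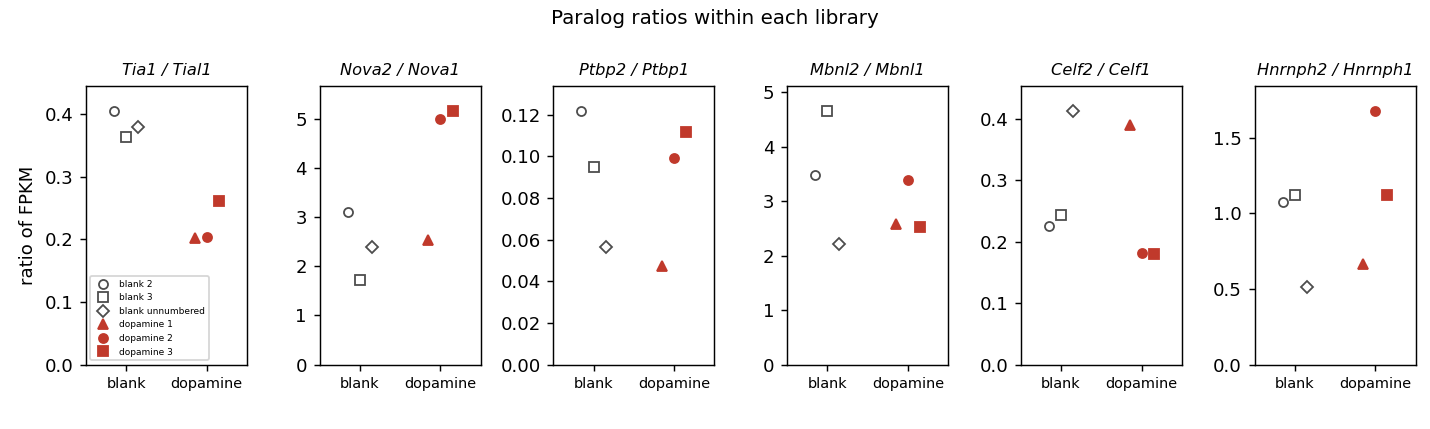
Ratio of FPKM between 6 pairs of paralogs within each library, axes from 0, for blank (open grey) and dopamine (filled red) libraries. The groups separate for Tia1 over Tial1 (0.363 to 0.405 against 0.203 to 0.262) and overlap for the other pairs.

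A wider list of 45 hnRNP-like proteins and tissue-specific regulators outside these 39 was set beside them. Since edgeR called 0 of all 15420 genes, any list would hold 0 calls. Of the list, 41 were tested, 0 passed the threshold in either direction, and 0 had an unadjusted p under 0.05 in edgeR (2.94% of all genes tested). Of these, 25 lay on the higher side and 16 on the lower side (51.7% of all genes were on the higher side), with a median log2 fold change of 0.04. The groups overlapped for each of the 41, where 8.48% of all genes tested had no overlap. Qk, an RNA-binding regulator of glial splicing, ranged from 613 to 955 CPM without dopamine and from 702 to 804 CPM with it. The neuron-restricted Srrm4, an activator of microexons, ranged from 2.30 to 7.64 CPM without dopamine and from 3.23 to 8.04 CPM with it.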

How the data were processed

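Per the labels' protocols, RNA was handled with a SMART-Seq HT kit, libraries were made with a Vazyme DNA kit, and pairs of 150 bp reads were taken on an Illumina sequencer. Per the file headers, the authors deposited raw read counts per Ensembl gene and exonic gene lengths for 56691 genes. The submitters' processing notes name GRCm39. Aligner, counter, strand setting and annotation release: not given in the sources used here. This chemistry does not mark strand. The 6 deposited FPKM columns were not used.

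Counts of 3 blank and 3 dopamine libraries went into edgeR 4.0.16 (R 4.3.3): filterByExpr (15420 genes), TMM scaling, quasi-likelihood test, no covariate, Benjamini-Hochberg adjustment, threshold 0.05. Each SE is the absolute log2 fold change over the root of its F statistic. CPM are counts scaled by the TMM-adjusted library totals. FPKM use unscaled totals. Alternatives used DESeq2 1.42.0, limma 3.58.1 with a pseudocount of 1 FPKM, other filters and scalings, and left-out libraries. The fits were tested on simulated data.

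The members and lists were chosen with earlier results of these data known. Full values were given by rule to members with an unadjusted p under 0.05, no overlap between groups or the extreme estimate of their class, and to the 6 named families. Hnrnpa1, Hnrnpab, Hnrnpd, Hnrnpdl, Tial1, Hnrnph1, Hnrnph2, Qk and Srrm4 were chosen after their values were seen. Promoters are RefSeq windows on GRCm38.p6. Exon overlaps come from GENCODE M21, and only the relation between genes was used from it. The edgeR intervals rest on the spread between libraries. The limits given for a count of 0 cover counting error only, because amplified reads are not independent molecules.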

Additional observations from a re-analysis of the deposited data

How the results depend on the processing

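The number of genes past the threshold was 0 in edgeR under each scaling, filter and left-out library and in limma, and 20 in DESeq2. The median log2 fold change of the tissue-specific regulators moved by more than the small spread between libraries of the class (SD 0.040). Such an SD is that of the class's median log2 CPM between libraries of a group, not a spread of the fold change. The median was -0.15 with no filter on low counts and -0.15 at a mean FPKM of at least 1 in either group. In limma it was -0.17 on log2(FPKM + 1) and -0.18 after quantile normalization. With a library left out the median ran from -0.23 to 0.024. The other medians also moved, within the wider SDs of their classes. With a library left out they ran from -0.11 to 0.15 for the broad hnRNP genes (SD 0.249). The range was -0.19 to 0.23 for the other regulators (SD 0.389) and -0.064 to 0.11 for the wider list (SD 0.163). Each of these ranges includes both signs. Of 264 values for 19 genes over 14 alternatives, 242 kept their direction and 22 did not. For 10 of the 19 genes no alternative turned the direction. Hnrnpa1 gave 0.0055 in limma on log2(FPKM + 1), and Mbnl1 gave -0.021 there and -0.016 after quantile normalization. With a library left out, the range was -0.46 to 0.70 for Hnrnpa1, -0.49 to 0.33 for Hnrnpab, -0.0200 to 0.70 for Hnrnpd, -0.10 to 0.57 for Hnrnpdl, -0.32 to 0.15 for Ptbp1, -0.67 to 0.22 for Celf2, -0.024 to 0.059 for Mbnl1 and -0.74 to 0.0038 for Nova1. With the libraries numbered 2 and 3 alone, Hnrnpa1 gave 0.41 with a replicate block and 0.45 without it, Hnrnpab 0.30 with and without it, and Celf1 -0.016 with and without it. With the replicate block, 0 genes passed and 1122 had an unadjusted p under 0.05, against 1403 without it. Same-numbered deviations correlated at 0.60 for number 2 and at -0.27 for number 3 across genes. With the numbers crossed the values were 0.53 and -0.08, so the numbers were not taken to pair the libraries. Similarity between libraries cut across the groups: blank 2 correlated at 0.9832 with dopamine 2 and at 0.9825 with dopamine 3, but at 0.9588 with blank 3. The causes were not tested. Members near the detection limit (Rbfox1, Rbfox3, Mbnl3, Esrp1 and Esrp2) are limited by depth.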
